A study of Mus musculus with 6 samples.

Results

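The presynaptic active zone scaffolds are described here as 10 genes, taken by symbol from the gene count table: the Munc13 genes Unc13a, Unc13b and Unc13c, the RIM genes Rims1 and Rims2, the giant scaffold genes Bsn and Pclo, and Rimbp2, Erc1 and Ppfia3. All 10 were found among the 55401 genes of the table, and all 10 were among the 20587 genes with enough counts to be tested. Bulk RNA from the anterior cingulate cortex, a midline frontal area involved in mood and pain, was sequenced from mice, Ythdf1 knockout (KO) or wild type (WT), 3 libraries per genotype. The series description calls the mice adult. The labels name no knockout allele, strain, sex or age in weeks or months, and leave unsaid whether libraries stand for single animals or pools. The p-values therefore rest on the spread among these libraries alone, which may be technical. YTHDF1 is a cytoplasmic reader of the RNA mark N6-methyladenosine (m6A) that is known for promoting translation of marked mRNAs, and the study concerns its part in synaptic function.

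The active zone is the patch of presynaptic membrane where synaptic vesicles dock, are primed and fuse. Bassoon and Piccolo span it as large scaffolds, RIM proteins tether vesicles and calcium channels to it, RIM-binding proteins link RIMs to those channels, ELKS and liprin-alpha proteins help to assemble it, and Munc13 proteins open syntaxin so that SNARE complexes can form. Without Munc13 or RIM function, vesicles are poorly primed and evoked release is strongly reduced, which is how these genes are best known in cortical neurons.

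No member passed the test between genotypes. Of the 10, 7 were lower and 3 higher in KO libraries. Their median log2 fold change was -0.03, beside -0.0006 over all tested genes. Of the members, 0 were called by edgeR's quasi-likelihood test at a Benjamini-Hochberg adjusted p under 0.05, as were 0 of all tested genes (0%), and 1 member, Rims1, had an unadjusted p under 0.05, against 1083 genes (5.26%). Rims1 was lower in KO libraries, as were 543 of those genes (2.64% of all tested). DESeq2 called 34 genes, none of them a member. The mRNA of the 10 genes summed to 2217, 2542 and 2502 CPM (counts relative to the scaled library size) in KO replicates 1, 2 and 3, and to 2465, 2424 and 2594 CPM in WT replicates 1, 2 and 3. KO replicate 1 was the lowest of the 6 libraries in that sum, and the other libraries of the genotypes overlapped. Because the tissue is bulk, fewer cells of a type and less RNA per cell cannot be told apart.

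**Figure D1:**
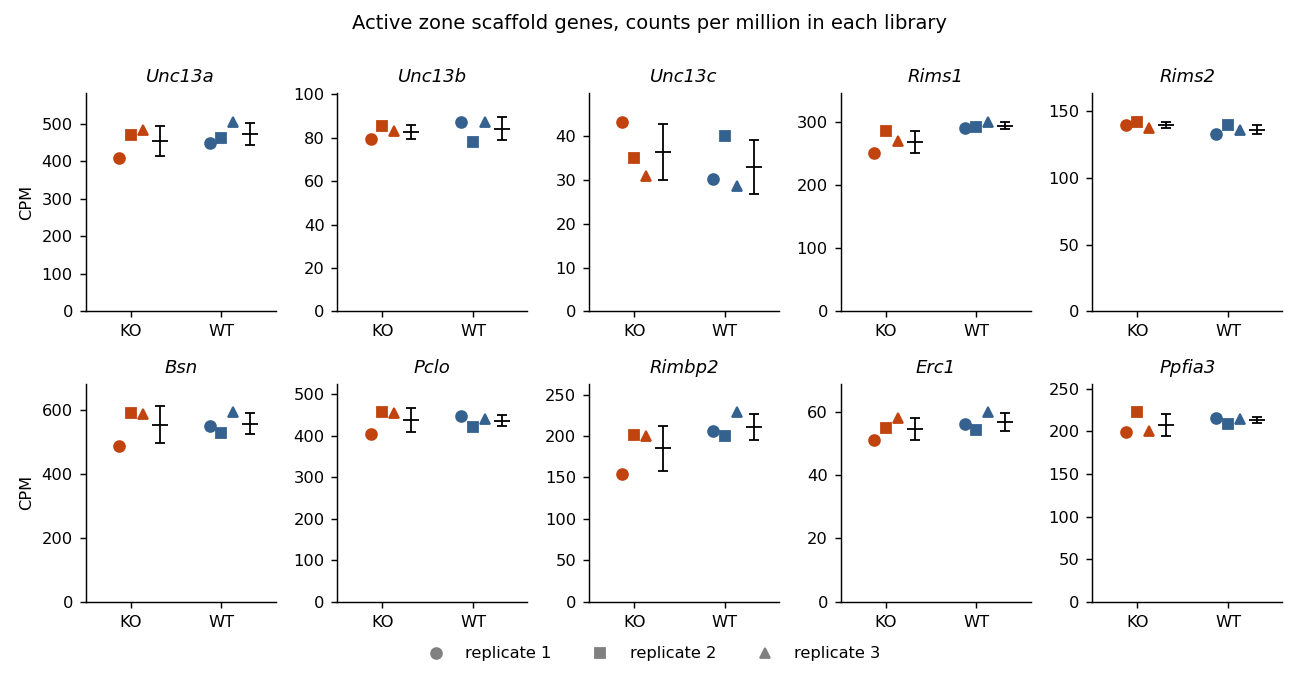
CPM of each scaffold gene (vertical axes, from 0) in the 3 KO and 3 WT libraries, with marker shape giving the replicate number and black bars the mean ± SD. KO replicate 1 (circle) is the lowest library for 7 of the 10 genes and the highest for Unc13c, and Rims1 is the gene whose groups do not overlap.

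The libraries held 61792250 to 69848835 counts. Ythdf1 mRNA, the targeted gene, was at 58.2, 62.1 and 57.2 CPM in the libraries labelled KO and at 55.8, 53.3 and 49.0 CPM in those labelled WT, so the gene total does not show the knockout named by the label, and every direction given here rests on that label: KO libraries are the libraries labelled KO. Of cortical excitatory neuron markers, Slc17a7 and Tbr1 were present in all libraries, while the cerebellar granule cell marker Gabra6 had 0 counts in 5 libraries and 11 counts in WT replicate 3. Of the other cerebellar markers listed, Zic2 had 292 to 665 counts in KO libraries and 475 to 634 in WT libraries, Cbln3 12 to 27 in KO libraries and 22 to 60 in WT libraries, and Fat2 and Barhl1 24 or fewer in each library. The 12 neuron markers summed to 4697 to 4713 CPM in KO libraries and 4529 to 4748 CPM in WT libraries, with 11 higher and 1 lower in KO libraries. Of the 10 cortical excitatory markers, 4 were higher and 6 lower. In 4 of these 10 all KO values lay above all WT values, beside 5.84% of all tested genes. At an unadjusted edgeR p under 0.05 stood 3 of the 10, all higher, beside 5.26% of all tested genes. The 10 oligodendrocyte markers, all higher in KO libraries, summed to 4496 to 6836 CPM in KO libraries and 4033 to 4800 CPM in WT libraries, and the 9 meningeal markers, all lower, summed to 78.3 to 95.3 CPM in KO libraries and 110.3 to 208.5 CPM in WT libraries. The 9 striatal and 7 endothelial markers were also all lower in KO libraries. The striatal difference lay mainly in WT replicate 2, with a median deviation from the mean of the 6 libraries of 0.83 (log2). It was -0.04 and -0.18 in WT replicates 1 and 3, and -0.24 to -0.17 in KO libraries. The part of these marker differences in the values of the scaffold genes was not tested.

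Unc13a encodes Munc13-1, the main vesicle priming factor of cortical glutamatergic synapses. The gene (ENSMUSG00000034799, GENCODE M21 on GRCm38, chromosome 8, 71624417 to 71671757, minus strand) stood at 409.2, 470.2 and 483.5 CPM in KO replicates 1, 2 and 3, and at 448.9, 463.1 and 506.0 CPM in WT replicates 1, 2 and 3. The groups overlapped, with the lowest value in KO replicate 1 and the highest in WT replicate 3. The means were 454.3 ± 39.6 CPM in KO libraries and 472.7 ± 29.7 CPM in WT libraries (SD, n = 3 each), and the log2 fold change was -0.06 (95% interval -0.22 to 0.11; edgeR adjusted p = 0.975). Leaving out KO replicate 1 gave 0.01. The interval over all libraries leaves room for a mean in KO libraries between 0.86 and 1.08 times that in WT libraries. Of its last exon, 495 bases lie opposite an exon of Colgalt1, and no source used here gives the strand setting of the counting.

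Unc13b encodes Munc13-2, a priming factor used by a smaller set of synapses and made in a widely expressed form and a brain-specific form. The gene (ENSMUSG00000028456, chromosome 4, 43058953 to 43264871, plus strand) stood at 79.2, 85.4 and 82.8 CPM in KO libraries and at 87.3, 78.0 and 87.1 CPM in WT libraries. The highest and the lowest value were both in WT libraries, so the KO values lay inside the WT range. The log2 fold change of the gene total was -0.03 (95% interval -0.17 to 0.11; edgeR adjusted p = 0.985). With 1 library left out it ran from -0.085, without WT replicate 2, to -0.001, without KO replicate 1.

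Unc13c encodes Munc13-3, known best from the cerebellum. The gene (ENSMUSG00000062151, chromosome 9, 73479422 to 73968966, minus strand) stood at 43.3, 35.0 and 30.8 CPM in KO replicates 1, 2 and 3, and at 30.3, 40.0 and 28.6 CPM in WT replicates 1, 2 and 3. KO replicate 1 and WT replicate 2 were the highest libraries, and the groups overlapped. The means were 36.3 ± 6.35 CPM in KO libraries and 33.0 ± 6.16 CPM in WT libraries (SD, n = 3 each), and the log2 fold change was 0.14 (95% interval -0.20 to 0.48; edgeR adjusted p = 0.975). Leaving out KO replicate 1 gave -0.004, and leaving out WT replicate 2 gave 0.30. Unc13c had the widest spread of the 10 genes, with a coefficient of variation of 17.0% over the 6 libraries.

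The Munc13 coding sequences were compared because reads from near-identical paralogs could be exchanged in counting. The most alike 150 base stretch, as long as a single read of the paired sequencing, was between Unc13a (chr8:71652584-71653461, minus strand) and Unc13b (chr4:43237074-43237772, plus strand), in GRCm38 with introns inside both spans. It matched at 131 of 150 bases, and the differing bases are in capitals below.
Unc13a coding sequence: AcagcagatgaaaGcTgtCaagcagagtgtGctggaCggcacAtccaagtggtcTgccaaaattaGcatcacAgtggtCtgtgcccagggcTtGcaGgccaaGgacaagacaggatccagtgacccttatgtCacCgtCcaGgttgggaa
Unc13b coding sequence: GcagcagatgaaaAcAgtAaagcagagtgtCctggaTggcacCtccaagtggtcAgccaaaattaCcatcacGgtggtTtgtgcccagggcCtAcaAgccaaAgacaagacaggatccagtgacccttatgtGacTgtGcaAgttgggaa
The longest run of identical bases between these genes was 32, and the closest 150 base stretch of Unc13c matched Unc13a at 83.3% and Unc13b at 84.0%. No member's coding sequence matched a transcript of another gene at 95% identity over 150 bases, except that of Pclo, which matched its own antisense genes Gm26918 and Gm26954.

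Per kilobase of exon, Unc13a made up 82.2 ± 2.49% of the Munc13 total in KO libraries and 83.4 ± 1.46% in WT libraries (SD, n = 3 each). Unc13b made up 8.30 ± 0.261% in KO libraries and 8.25 ± 0.649% in WT libraries, and Unc13c made up 9.53 ± 2.25% in KO libraries and 8.37 ± 1.67% in WT libraries. Unc13a was thus the main Munc13 mRNA of this tissue in both genotypes, and the mean shares of the genotypes differed by less than the SD between libraries. Per kilobase of the longest annotated transcript, the shares over the 6 libraries were 82.5% for Unc13a, 10.3% for Unc13b and 7.19% for Unc13c, so the order of Unc13b and Unc13c depends on the length used. Both lengths used for Unc13b exceed the 5034 to 6574 bases of its other long coding transcripts, and a shorter length would raise its share.

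One Unc13b transcript was the single entry of any member in the authors' deposited table of 537 transcripts listed as differing, out of 81 annotated transcripts of the 10 genes. This transcript, Unc13b-201 (ENSMUST00000079978, protein coding, 39 exons, 6354 bases, chromosome 4, 43058969 to 43264871), had 0.000111, 0.565 and 0.206 FPKM (fragments scaled to transcript length and library size) in KO replicates 1, 2 and 3, and 0, 0.00529 and 0.00165 FPKM in WT replicates 1, 2 and 3, in the authors' deposited table. KO replicates 2 and 3 were above the other libraries, and KO replicate 1 lay below WT replicates 2 and 3, so the groups overlapped. The authors' deposited table gives a log2 ratio of means of 6.80 and a q-value of 0.00787. Multiplied by the transcript's length, the FPKM of KO replicate 2 equals 3.59 fragments on the per-library CPM scale and that of KO replicate 3 equals 1.31, beside 85.4 and 82.8 CPM for the whole gene in the same libraries. These amounts are small beside the gene total. The table was chosen on these values by its authors, so no test is added here.

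Unc13b-201 is hard to measure on its own. Of its 6354 bases, 0 are absent from every other annotated Unc13b transcript, and of its 38 splice junctions 0 are its own, so its value comes from how reads are divided among 16 overlapping annotated transcripts. It lacks short exons that other long coding forms carry. Unc13b-215 carries a 33 base exon, Unc13b-202 and Unc13b-212 carry a 36 base exon and Unc13b-203 and Unc13b-216 carry a 57 base exon, each with a length that is a multiple of the codon. Unc13b-216 also carries a 23 base exon, whose length is not. These short exons are only part of the differences. Unc13b-215 holds all 39 exons of Unc13b-201 among its 41 exons, but has 14754 bases, so most of its extra length lies outside the 33 base exon. It shares 37 of the 38 junctions, so its other extra exon lies in the same intron as the 33 base exon. The join given below over the 33 base exon therefore skips that longer exon too. The letters of the 36, 33 and 57 base exons come from GENCODE M21 transcripts (GRCm38, plus strand). They are given with the joins of Unc13b-201 that skip them because the forms differ there, though not only there. In the joins, the 3 bases on either side of the junction are in capitals.
36 base exon (chr4:43161443-43161478): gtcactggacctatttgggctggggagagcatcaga
join over it, 43115160 to 43165744: ctgccgcccagtGTTCCTttgaagaccctg
33 base exon (chr4:43166668-43166700): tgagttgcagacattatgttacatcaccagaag
join over it, 43165978 to 43180328: gcgtcgggccctCAGCCCtaccagcagtag
57 base exon (chr4:43260993-43261049): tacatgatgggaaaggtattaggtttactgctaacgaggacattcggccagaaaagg
join over it, 43259609 to 43261682: cacagactgcccAGGGGGctggtgtggatg
The join over the 36 base exon also occurs in Unc13b-203, Unc13b-214 and Unc13b-215, that over the 33 base exon in Unc13b-202, Unc13b-203 and Unc13b-212, and that over the 57 base exon in Unc13b-202, Unc13b-207, Unc13b-212 and Unc13b-215.

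**Figure D2:**
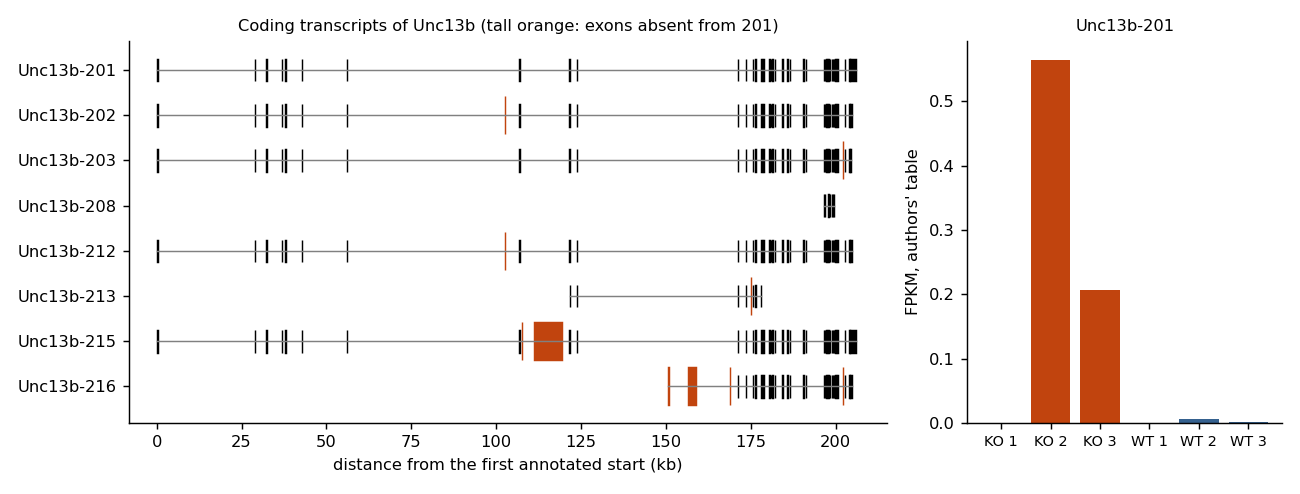
Left, the annotated coding transcripts of Unc13b by distance from the first annotated start (kb), with exons as boxes (very short exons drawn at a minimum width) and exons that do not overlap any exon of Unc13b-201 as tall orange boxes. Right, FPKM of Unc13b-201 in each library from the authors' deposited table, where KO replicates 2 and 3 stand at 0.565 and 0.206 FPKM and the other libraries at 0.00529 FPKM or less.

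Rims1 encodes RIM1, which binds Rab3 on vesicles, Munc13 and calcium channels. The gene (ENSMUSG00000041670, chromosome 1, 22286251 to 22805994, minus strand) stood at 250.3, 285.1 and 270.0 CPM in KO replicates 1, 2 and 3, and at 290.3, 291.4 and 300.1 CPM in WT replicates 1, 2 and 3. Every KO library lay below every WT library, which held for 1 of the 10 members and for 1062 of 20587 tested genes (5.16%). The means were 268.5 ± 17.4 CPM in KO libraries and 293.9 ± 5.34 CPM in WT libraries (SD, n = 3 each). This is a log2 fold change of -0.13 (95% interval -0.26 to -0.01; unadjusted p = 0.0415 and edgeR adjusted p = 0.930), so Rims1 did not pass over all genes. Its unadjusted p was above the threshold when any library but KO replicate 2 was left out, up to 0.122 without KO replicate 1, and 0.0622 with the replicate number as a block.

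Rims2 encodes RIM2, which shares the RIM1 functions at many synapses. The gene (ENSMUSG00000037386, chromosome 15, 39198261 to 39684372, plus strand) stood at 139.7, 142.2 and 137.3 CPM in KO libraries and at 132.6, 139.6 and 136.0 CPM in WT libraries. It was the steadiest member, with a coefficient of variation of 2.42% over the 6 libraries, and its groups overlapped. The log2 fold change was 0.04 (95% interval -0.07 to 0.14; edgeR adjusted p = 0.975).

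The ratio of Rims1 CPM to Rims2 CPM within a library does not depend on the library scaling, and was examined after the values of both genes were seen. It stood at 1.79, 2.01 and 1.97 in KO replicates 1, 2 and 3, and at 2.19, 2.09 and 2.21 in WT replicates 1, 2 and 3. All KO ratios lay below all WT ratios, with means of 1.92 ± 0.113 in KO libraries and 2.16 ± 0.0637 in WT libraries (SD, n = 3 each), a description with no test. Rims1 alone already separated the groups, so the ratio is not a second observation. Among single genes, the groups did not overlap, in either direction, for 2265 of 20587 tested genes (11%). The RIM coding sequences can be told apart by reads: their most alike 150 base stretch (Rims1 chr1:22292841-22296913, minus strand; Rims2 chr15:39675026-39679341, plus strand; GRCm38, introns inside both spans) matched at 122 bases, with differing bases in capitals.
Rims1 coding sequence: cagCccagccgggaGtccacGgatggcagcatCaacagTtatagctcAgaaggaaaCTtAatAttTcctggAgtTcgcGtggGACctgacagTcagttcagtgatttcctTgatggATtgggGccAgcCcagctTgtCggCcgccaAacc
Rims2 coding sequence: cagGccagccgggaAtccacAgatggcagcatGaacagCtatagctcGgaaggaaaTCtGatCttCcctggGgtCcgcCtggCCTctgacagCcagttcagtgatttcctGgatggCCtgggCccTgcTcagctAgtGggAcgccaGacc
The longest identical run between the RIM genes was 23 bases.

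Bsn encodes Bassoon, a giant scaffold that is carried to new synapses with Piccolo. The gene (ENSMUSG00000032589, chromosome 9, 108096022 to 108190384, minus strand) stood at 485.9, 588.5 and 585.0 CPM in KO libraries and 549.8, 526.7 and 592.2 CPM in WT libraries. KO replicate 1 was lowest and the rest of the groups overlapped. The log2 fold change was -0.01 (95% interval -0.19 to 0.17; edgeR adjusted p = 0.998). Leaving out KO replicate 1 gave 0.08, and leaving out WT replicate 3 gave 0.04. The mean of 553.1 ± 58.3 CPM in KO libraries and that of 556.2 ± 33.2 CPM in WT libraries (SD, n = 3 each) differed by less than the SD between replicates.

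Pclo encodes Piccolo, the related giant scaffold, with roles in vesicle clustering and presynaptic actin assembly. The gene (ENSMUSG00000061601, chromosome 5, 14514918 to 14863459, plus strand) stood at 405.2, 457.4 and 454.1 CPM in KO libraries and at 448.3, 422.3 and 440.9 CPM in WT libraries. The KO values spanned the WT values on both sides. The log2 fold change was 0.01 (95% interval -0.12 to 0.14; edgeR adjusted p = 0.998), and its sign was negative with upper-quartile factors (-0.004) and with neuron markers as the scale (-0.02). Antisense genes Gm26918 and Gm26954 overlap its exons by 429 and 496 bases.

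Rimbp2 encodes RIM-binding protein 2, which bridges RIMs and presynaptic calcium channels. The gene (ENSMUSG00000029420, chromosome 5, 128757791 to 128953486, minus strand) stood at 154.1, 201.4 and 200.4 CPM in KO replicates 1, 2 and 3, and at 205.5, 199.5 and 228.8 CPM in WT replicates 1, 2 and 3. KO replicate 1 stood well below the other libraries, and KO replicates 2 and 3 overlapped WT replicate 2. The means were 185.3 ± 27.0 CPM in KO libraries and 211.2 ± 15.5 CPM in WT libraries (SD, n = 3 each), and the log2 fold change of -0.19 was the lowest of the members (95% interval -0.42 to 0.04; edgeR adjusted p = 0.956). Leaving out KO replicate 1 gave -0.07.

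Erc1 encodes ELKS1, a coiled-coil active zone protein that is also made outside the nervous system. The gene (ENSMUSG00000030172, chromosome 6, 119570796 to 119848167, minus strand) stood at 51.1, 54.7 and 57.9 CPM in KO libraries and at 56.1, 54.3 and 59.8 CPM in WT libraries, with overlapping groups. The log2 fold change was -0.06 (95% interval -0.21 to 0.09; edgeR adjusted p = 0.975). With 1 library left out, Erc1 ran from -0.11, without KO replicate 3, to -0.012, without KO replicate 1. Its exons share 1919 bases with the antisense gene Gm44317. Ppfia3 encodes liprin-alpha-3, an adaptor of presynaptic assembly. The gene (ENSMUSG00000003863, chromosome 7, 45339122 to 45367019, minus strand) stood at 199.0, 222.5 and 200.3 CPM in KO libraries and at 215.6, 208.9 and 214.6 CPM in WT libraries. KO libraries held both its highest and its lowest value, and the log2 fold change was -0.04 (95% interval -0.16 to 0.08; edgeR adjusted p = 0.975). With 1 library left out, Ppfia3 ran from -0.094, without KO replicate 2, to -0.012, without KO replicate 1.

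**Figure D3:**
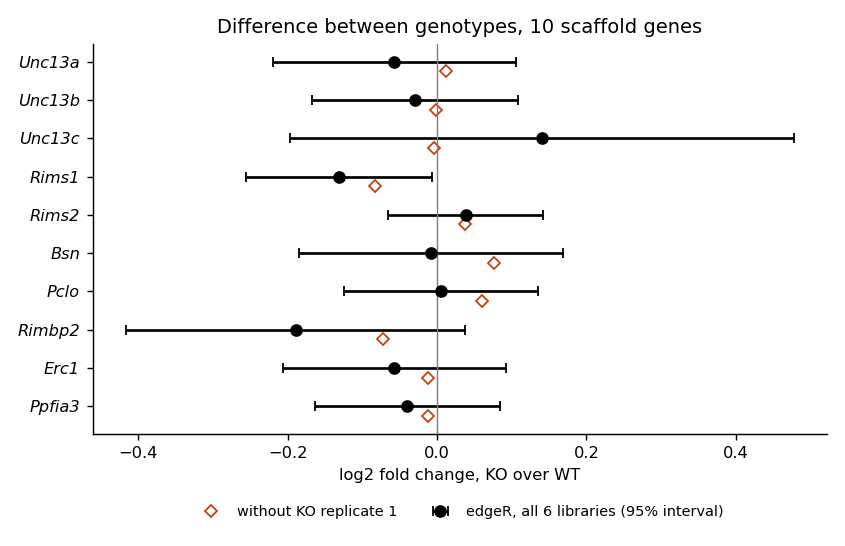
Log2 fold change of each scaffold gene, KO over WT (horizontal axis), from edgeR with its 95% interval (filled points), and the same without KO replicate 1 (open diamonds). The interval of Rims1 ends just below 0, at -0.01, the other 9 contain 0, and without KO replicate 1 the values run from -0.08 for Rims1 to 0.08 for Bsn.

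Levels of the genes were compared on the scale of CPM per kb of exon, as means of the 6 libraries. Rims1 was highest at 38.2 CPM per kb, followed by Unc13a at 36.7, Bsn at 34.8, Ppfia3 at 26.6, Rimbp2 at 24.99, Pclo at 19.5 and Rims2 at 13.3 CPM per kb. Unc13c at 3.94, Unc13b at 3.66 and Erc1 at 3.42 CPM per kb formed the lowest group. The ranges of neighbours over the libraries overlapped, except between Bsn and Ppfia3, between Pclo and Rims2, and between Rims2 and Unc13c. Per kb of the longest transcript, Unc13a was first at 45.2 and Rims1 second at 43.6 CPM per kb. Ppfia3 and Rims2 moved up to 43.0 and 28.7 CPM per kb when the longest annotated transcript was taken as the length, since their annotated exons add up to much more than any of their transcripts. Unc13b and Erc1 also rose, to 5.65 and 6.35 CPM per kb. The longest Unc13b transcript has 14754 bases, against 5034 to 6574 in its other long coding transcripts. The low level of Unc13b per kb therefore depends on the length used. Among all tested genes, the level per kb of Rims1 stood at percentile 95.2 and that of Erc1 at percentile 54.5.

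**Figure D4:**
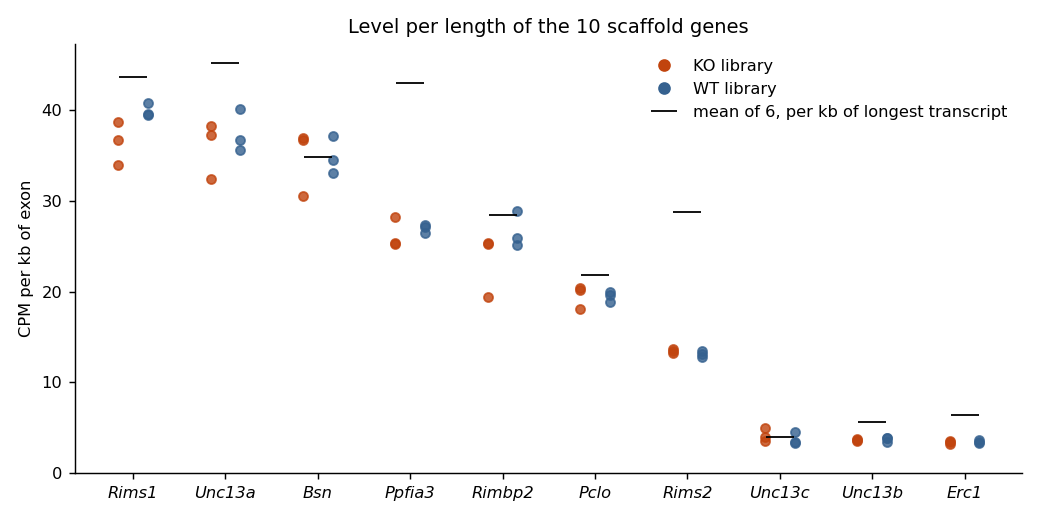
CPM per kb of annotated exon (vertical axis, from 0) for each scaffold gene in the KO and WT libraries (points), with the mean of 6 libraries per kb of the longest transcript as a black dash. Rims1, Unc13a and Bsn stand at 30.5 to 40.8 CPM per kb in single libraries, and Unc13c, Unc13b and Erc1 at 3.14 to 4.92.

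The members share long transcripts and long genes. Their longest annotated transcripts run from 4.80 kb for Rims2 to 20.1 kb for Pclo, and their genes from 27.9 kb for Ppfia3 to 519.7 kb for Rims1. They lie on 8 chromosomes, with Unc13c and Bsn both on chromosome 9 and Pclo and Rimbp2 both on chromosome 5. The 3937 tested protein-coding genes whose longest transcript is at least as long as the shortest of the members had a median log2 fold change of -0.02. In KO replicate 1 the median deviation from the mean of the 6 libraries was -0.12 (log2) over the members and -0.02 over those 3937 genes. It was -0.04 over the 404 tested protein-coding genes with a longest transcript of at least 10 kb, and 0.01 over all 15626 tested protein-coding genes. The part of transcript length in the members' values was not tested. In the remaining libraries the median deviation of the members lay between -0.003 and 0.08.

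KO replicate 1 was the lowest library for 7 of the 10 members (Unc13a, Rims1, Bsn, Pclo, Rimbp2, Erc1 and Ppfia3), while it was the lowest for 4099 of 20587 tested genes (19.9%). The lists of related presynaptic genes described below were also below 0 in KO replicate 1. There the median deviation was -0.07 (log2) over calcium channel subunits, -0.06 over release machinery, -0.05 over relatives and -0.019 over binding partners. The relatives and partners were lower still in WT replicate 1, at -0.09 and -0.020. This lowering in KO replicate 1 was thus not particular to the members. The same library had the highest sum of oligodendrocyte markers, at 6836 CPM, against 5166 and 4496 CPM in the other KO libraries and 4033 to 4800 CPM in WT libraries. The part of that marker difference in the members' values was not tested. Without KO replicate 1 the median log2 fold change of the members was -0.003, with 6 members below 0. The 5 genes outside the members with the pattern over the 6 libraries most like the members' mean, among 10107 genes of at least 10 CPM, were Fam184a, Smap2, Ints12, Mat2a and Becn1, with a root mean square difference of 0.010 to 0.013 (log2), against a median of 0.096 over those genes. That mean ran only from -0.09 in KO replicate 1 to 0.05 in WT replicate 3, with Unc13c at 0.34 in KO replicate 1. By the same measure the members lay 0.041 to 0.373 from each other, so likeness to their mean is not likeness to each member.

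Among the 12 relatives of the members, which include further RIM, ELKS, liprin and Munc13-like genes, 6 were higher and 6 lower in KO libraries, with a median log2 fold change of 0.02 and 0 called by edgeR. At an unadjusted p under 0.05 stood 1 of the 12, beside 5.26% of all tested genes. Baiap3, a Munc13-related gene of dense-core vesicle traffic, was at 3.34 ± 0.385 CPM in KO libraries and 4.72 ± 0.729 CPM in WT libraries (SD, n = 3 each; edgeR adjusted p = 0.881). Ppfia4, which encodes liprin-alpha-4, was at 74.8 ± 12.2 CPM in KO libraries and 64.9 ± 8.00 CPM in WT libraries (edgeR adjusted p = 0.956). In Baiap3 every KO library lay below every WT library, as in 1062 of all tested genes (5.16%), and in Ppfia4 the groups overlapped.

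Of the 27 binding partners, 11 were higher and 16 lower. Their median was -0.01, with 0 called by edgeR and 3 of 27 at an unadjusted p under 0.05, beside 5.26% of all tested genes. Ywhah, the eta form of the 14-3-3 adaptors, stood at 890.1, 856.0 and 868.9 CPM in KO libraries and at 773.9, 777.1 and 730.0 CPM in WT libraries. All its KO values lay above all its WT values, as did those of 1203 tested genes (5.84%), with a log2 fold change of 0.20 and an edgeR adjusted p of 0.881. Of the 27 partners, 3 had all KO values above all WT values and 3 had all KO values below, the latter beside 5.16% of all tested genes. Lin7a, a partner of the scaffold CASK, was at 27.7 ± 0.837 CPM in KO libraries and 30.9 ± 1.03 CPM in WT libraries (edgeR adjusted p = 0.930). Rnf40, a ubiquitin ligase of histone H2B that also binds syntaxin, was at 56.7 ± 1.21 CPM in KO libraries and 61.7 ± 2.08 CPM in WT libraries (edgeR adjusted p = 0.930).

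Of the 10 calcium channel subunits, 4 were higher and 6 lower. Their median was -0.04, with 0 called by edgeR and 1 of 10 at an unadjusted p under 0.05, beside 5.26% of all tested genes. Cacna1a, the pore of the P/Q-type channel that RIM proteins hold at release sites, stood at 204.5, 194.4 and 209.0 CPM in KO libraries and at 213.4, 224.0 and 223.7 CPM in WT libraries. All KO values lay below all WT values, as did those of 1062 tested genes (5.16%), with a log2 fold change of -0.12 (edgeR adjusted p = 0.930). Cacna2d1, an accessory alpha2delta subunit, was at 269.7 ± 29.4 CPM in KO libraries and 295.6 ± 20.995 CPM in WT libraries (edgeR adjusted p = 0.959). The authors' deposited table also lists a transcript each of Cacna2d1 and Cacna1b, the pore of the N-type channel, as higher in KO libraries; they are named after their values were seen. The Cacna1b transcript ENSMUST00000102939 was at 5.96, 4.01 and 0 FPKM in KO replicates 1, 2 and 3, and was listed at 0 FPKM in the WT libraries, in the authors' deposited table. The gene total of Cacna1b was not higher in KO libraries. It was at 126.2, 149.8 and 147.9 CPM in KO replicates 1, 2 and 3, and at 152.2, 139.0 and 150.0 CPM in WT replicates 1, 2 and 3. Its log2 fold change was -0.06 (edgeR adjusted p = 0.975). The Cacna2d1 transcript ENSMUST00000199704 was at 0.135, 0.351 and 0.742 FPKM in KO libraries and at 0, 0 and 0.0323 FPKM in WT libraries, in the authors' deposited table.

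Of the 23 genes of the release machinery, 11 were higher and 12 lower. Their median was -0.02, with 0 called by edgeR and 0 at an unadjusted p under 0.05. Syn3, a synapsin, was at 15.2 ± 1.94 CPM in KO libraries and 12.4 ± 1.52 CPM in WT libraries (edgeR adjusted p = 0.930). Syn2, another synapsin, was at 409.5 ± 27.3 CPM in KO libraries and 437.4 ± 18.3 CPM in WT libraries (edgeR adjusted p = 0.959). The medians of these 4 lists and of the members lay between -0.04 and 0.02, and no test of a list was made.

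**Figure D5:**
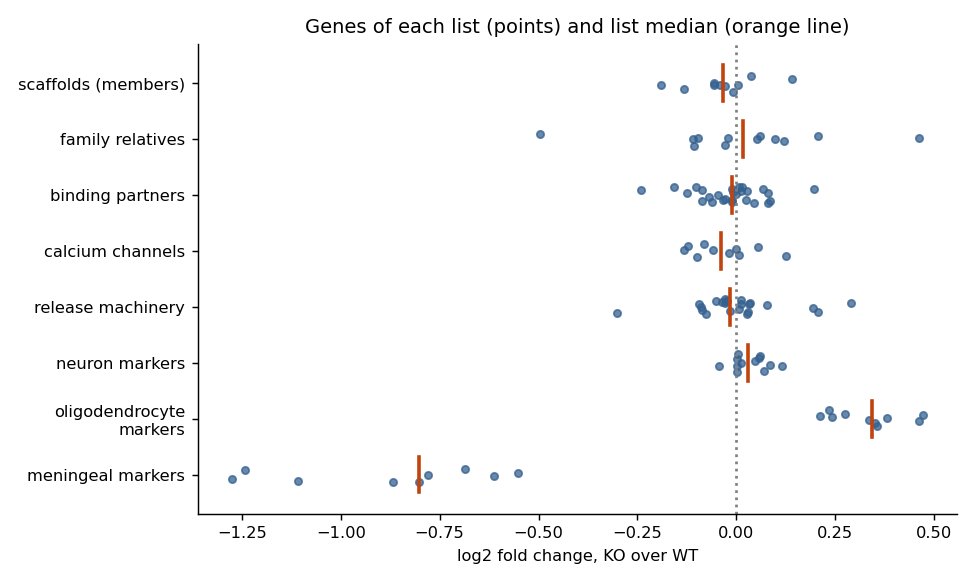
Log2 fold change, KO over WT (horizontal axis), of each tested gene (points) in the scaffold genes, 4 lists of related synaptic genes and 3 lists of cell type markers, with list medians as orange lines and the median of all tested genes as a dotted line. The 5 presynaptic lists have medians between -0.04 and 0.02, beside 0.34 for oligodendrocyte and -0.80 for meningeal markers.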

How the data were processed

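Per the labels' protocols, polyadenylated RNA was sequenced in pairs from dUTP strand-marked libraries. The submitters' processing notes name DESeq2, edgeR, StringTie 2.1.6, HISAT2 2.2.1 and cutadapt 1.9. No source used here gives the genome build or the counting settings. The authors deposited whole-number counts per Ensembl gene, used as deposited. The authors also deposited FPKM values of listed transcripts with a ratio, its log2 value, p-values and q-values. Counts of a gene that has no symbol made up about 0.008% of a library.

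Gene counts were fitted with edgeR 4.0.16 under R 4.3.3 (filterByExpr, TMM, quasi-likelihood F-test, all 6 libraries, no covariate, Benjamini-Hochberg over all tested genes). The 95% intervals use the SE and the F-test's degrees of freedom. CPM are TMM-scaled, and lengths, places and transcript sequences come from GENCODE M21 (GRCm38), whose Unc13b-201 has the start and end deposited. Alternatives were DESeq2 1.42.0, limma 3.58.1 voom, other scalings, other filters, the replicate number as a block, and each library left out. Matches between coding sequences were found with blastn 2.17.0. The procedure was also run on simulated data, and no result given here rests on that run.

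The members and lists were chosen with earlier results of these data known. Named were all members, Ythdf1, in each related list the genes at an unadjusted p under 0.05 (with fewer than 2 of these, the 2 genes with the smallest p), member transcripts in the deposited table and the 5 genes most like the members' mean. Between libraries of 1 genotype, chi-square over its degrees of freedom was 16.2 to 26.7, so none was a copy.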

Additional observations from a re-analysis of the deposited data

How the results depend on the processing

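No member was called under any of the 15 alternatives run. Of 150 values of single members (10 genes, 15 alternatives), 141 kept their direction and 9 changed sign, the cause of which was not tested. Pclo was at -0.0036 (log2) with upper-quartile factors and -0.022 with the summed neuron markers as library size. With 1 library left out, Bsn ran from -0.055 to 0.077, Pclo from -0.025 to 0.060, Unc13a from -0.11 to 0.012 and Unc13c from -0.0044 to 0.30. The members' median ran from -0.07 to -0.003 with 1 library left out, and was -0.06 with neuron markers as library size, where all genes shifted to -0.03.

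DESeq2 called 34 genes, 11 higher and 23 lower, and edgeR called between 0 and 2 with 1 library left out. The number of members at an unadjusted p under 0.05 ran from 0 to 1 with 1 library left out. With the replicate number as a block it was 0. Same-numbered libraries did not deviate together (correlation of deviations from the group means -0.04 to 0.04, against -0.055 to 0.033 for libraries of different numbers). The labels do not say whether the numbers pair the libraries, and these correlations cannot settle it. Per kb of the longest transcript, the median level over members was 28.6 CPM per kb, against 22.2 per kb of exon. The log2 difference of Unc13b-201 was 0.30 with a pseudocount of 1 and 1.42 with 0.1, against 6.80 for the ratio of means.

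With 3 libraries per group, the unadjusted 95% intervals reached 0.10 to 0.34 (log2) to either side of a member's value, and Rims1, whose interval lies below 0, still had an edgeR adjusted p of 0.930.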

Other observations

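Unc13c had its highest values in KO replicate 1 and WT replicate 2, at 43.3 and 40.0 CPM, against 28.6 to 35.0 CPM in the other 4 libraries. Syt2, Vamp1, Slc17a6, Pvalb and Nefh, picked after their values were seen, had the same 2 libraries highest, while Ppfia4, read beside them, had KO replicates 1 and 3 highest. In the release machinery this order held for 4 of 23 genes (Cplx1, Snap25, Syt2 and Vamp1). It held for 2 of 7 inhibitory neuron markers (Gad1 and Pvalb) and 1 of 5 thalamic markers (Slc17a6). Of the 12 neuron markers, it held for Nefl, Nefm, Nefh, Stmn3 and Thy1. The other genes of these lists lacked this order. It also held for Rims3 and Ppfibp2 but no other relative of the members, and for Cacnb4 and Cacna2d3 but no other calcium channel subunit. In the remaining lists it was not counted. Syt2, a fast calcium sensor of release, was at 135.3, 78.7 and 98.8 CPM in KO replicates 1, 2 and 3, and at 77.5, 113.8 and 79.8 CPM in WT replicates 1, 2 and 3. Vamp1, a vesicle SNARE, was at 274.1, 172.3 and 203.7 CPM in KO replicates and at 163.0, 230.0 and 175.2 CPM in WT replicates. Slc17a6, the vesicular glutamate transporter abundant in thalamus, was at 66.4, 28.4 and 37.5 CPM in KO replicates and at 27.96, 49.4 and 35.5 CPM in WT replicates. Pvalb, a calcium buffer of fast-spiking interneurons, was at 51.6, 37.9 and 39.6 CPM in KO replicates and at 29.9, 46.6 and 32.6 CPM in WT replicates. Nefh, a neurofilament subunit of large axons, was at 118.0, 76.7 and 103.0 CPM in KO replicates and at 83.0, 111.7 and 86.2 CPM in WT replicates. The same 2 libraries were highest for 1933 of 20587 tested genes (9.39%). The 5 genes whose pattern over the 6 libraries was most like that of Unc13c, by the root mean square difference among 10116 genes of at least 10 CPM, were Smim19, Arrdc3, Pla2g7, Rpf1 and Rida, at 0.050 to 0.054 (log2) against a median of 0.229.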
